A study of Homo sapiens with 12 samples.

Results

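The genes that bring iron into the cell, store it, release it and sense it were followed in human embryonic kidney (HEK293) cells made to overexpress ALKBH4 or ALKBH7, a pair of dioxygenases that need ferrous iron as a cofactor. The genes were chosen by name, and every probe of the bead array that carries one of their symbols was taken. Of 10 named genes, 8 had a probe, 12 probes in all among the 48803 of the array. No probe carried the symbol of FTH1, the ferritin heavy chain, or of IREB2, the second iron regulatory protein, and these were not analysed here. Of the 12 probes, 8 passed the filter on dim signal (detection p under 0.01 on at least 3 of 12 arrays), and they stand for 7 genes among the 15444 probes and 10159 named genes tested.

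Cells take up iron bound to transferrin through the transferrin receptor, move it across the endosomal membrane, hand it to chaperones and lock the surplus inside ferritin. A pair of RNA-binding proteins senses iron in the cytosol. When iron is scarce they bind hairpins called iron responsive elements, which stabilizes the transferrin receptor mRNA and blocks translation of the ferritin mRNAs. The receptor mRNA is thus a member whose level is known to follow this switch, and need not be the only one. Ferritin subunits are known to be set mainly at translation. Arrays measure mRNA only.

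Both cell lines were derived from the Flp-In T-REx-293 host, a HEK293 derivative with a single integration site for a transgene and a stably expressed tetracycline repressor, and both were kept under blasticidin-S and hygromycin B. The 4 groups of 3 arrays were the ALKBH7 line induced, the ALKBH7 line uninduced, the ALKBH4 line induced and the ALKBH4 line uninduced. The ALKBH7 line carried FLAG-tagged ALKBH7 and the ALKBH4 line FLAG-tagged ALKBH4, each behind a tetracycline-responsive promoter. Induced cells received doxycycline at 2 µg/ml and uninduced cells received none. An integrated transgene was present in all 4 groups. Each line came from single resistant colonies. No cells without a transgene were given the drug, so an action of doxycycline, which binds metal ions, and an action of the enzyme cannot be told apart within a line. The sample descriptions do not say if the triplicates were grown separately, so a p-value here speaks of the scatter among these samples alone, which may be technical.

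The ALKBH7 probe stood at 13.04 ± 0.24 (mean log2 intensity, SD, n = 3) in induced ALKBH7 cells and at 9.32 ± 0.30 in uninduced ALKBH7 cells, and at 7.84 ± 0.18 and 7.80 ± 0.05 in induced and uninduced ALKBH4 cells. The ALKBH4 probe stood at 7.56 ± 0.27 in induced and 7.67 ± 0.20 in uninduced ALKBH4 cells. According to the study it anneals to an untranslated part of the gene, so it is no check of the transgene. The study verified the rise of ALKBH4 by quantitative PCR for the mRNA and by Western blotting for the protein. Median raw intensities were 98.9 to 121 in the ALKBH7 line and 45.6 to 61.6 in the ALKBH4 line, and 25.3 to 30.7% of probes were detected per array. Replicate 1 of the uninduced ALKBH7 group stood apart, with a mean correlation over all tested probes of 0.967 with the induced arrays of its line and 0.940 with its own group. Uninduced ALKBH4 arrays also correlated more with the induced arrays of their line than with their own group, by less. Their values were 0.979 against 0.977, 0.982 against 0.978 and 0.992 against 0.984. Of 14 listed genes of HEK293 character 13 had a probe, and 12 of these were detected on at least 3 arrays. Of the 10 blood genes with a probe HBA1 and CD68 were detected on all 12 arrays, CD14 on 10 and HBA2 on 2. The other 6, HBB and PTPRC among them, were detected on none. The 6 genes of liver and macrophage iron stores were detected on none, and of 8 fibroblast and endothelial genes COL1A1 and VWF were detected on at least 3. The number of arrays limits the precision of all values.

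A stretch with the loop of the ferritin light chain iron responsive element is shown because FTL is the storage gene that carries the results. It lies at the start of the FTL transcript, with the letters CAGTGN of the hairpin loop in capitals (RefSeq, GRCh38.p14, chr19:48965329-48965358, plus strand, in the first exon and its 5′ untranslated region).
FTL iron responsive element: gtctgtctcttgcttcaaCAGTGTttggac
The loop letters began at base 39 of the transcript. The line above stops at base 50, where the window read ends, so it does not hold the whole hairpin. A match to CAGTGN in the first 50 transcribed bases, read on the transcribed strand, was present in 6.36% of 35116 RefSeq gene starts. Among the members with a RefSeq start (9 of 10, with 14 starts) only FTL and NCOA4 had one. A match is a description and not a site.

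The 250 bases before the starts of TFRC and FTL are shown because these genes moved in opposite directions in the ALKBH7 line. Capitals mark ACGTG or GCGTG, the core letters of the hypoxia response element and its variant, on either strand (their reverse complements read CACGT and CACGC).
TFRC upstream (GRCh38.p14, chr3:196082091-196082340, minus strand): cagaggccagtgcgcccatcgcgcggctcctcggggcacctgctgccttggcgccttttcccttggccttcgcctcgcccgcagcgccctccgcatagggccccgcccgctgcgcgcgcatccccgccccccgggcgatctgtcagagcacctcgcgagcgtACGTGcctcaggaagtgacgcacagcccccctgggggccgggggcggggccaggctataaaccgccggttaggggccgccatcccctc
FTL upstream (GRCh38.p14, chr19:48965059-48965308, plus strand): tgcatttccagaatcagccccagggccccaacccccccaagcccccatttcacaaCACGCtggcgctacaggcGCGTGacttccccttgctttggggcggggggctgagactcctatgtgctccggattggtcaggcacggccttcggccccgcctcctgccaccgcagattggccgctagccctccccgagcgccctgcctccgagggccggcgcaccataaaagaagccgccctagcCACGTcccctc
The TFRC match lay 88 bases before the start, and the FTL matches lay 195, 177 and 11 bases before it. Either motif occurred in 43.2% of the 35116 upstream windows, ACGTG in 18.5% and GCGTG in 32.2%. FBXL5, ACO1, SLC11A2 and IREB2 also held a match, so genes with a match included ones that were higher, ones that were lower and one that did not pass the test in the ALKBH7 line.

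When ALKBH7 was induced, the mRNA for the iron uptake receptor was higher and the mRNA for the ferritin chain measured here was lower. The TFRC probe stood 1.76-fold higher and the FTL probes 1.72-fold and 1.78-fold lower in induced than in uninduced ALKBH7 cells. ACO1, the iron-sulphur enzyme that also serves as the first iron regulatory protein, stood 1.48-fold higher, and FBXL5, the iron-binding ubiquitin ligase subunit that targets the other regulatory protein for destruction, stood 2.11-fold lower at the single probe that measured it. In all, 5 of 8 tested iron probes, for 4 of 7 genes, passed limma's test at a Benjamini-Hochberg adjusted p under 0.05, 2 higher and 3 lower. Over all 15444 tested probes the share called was 24.0%, with 11.8% higher and 12.2% lower, and that share depended on single arrays of the line, with 44.3% without uninduced replicate 1, 8.28% without induced replicate 2, 10.0% without induced replicate 1, 11.7% without uninduced replicate 2 and 13.6% without uninduced replicate 3. The groups did not overlap at the same 5 iron probes, against 36.7% of all probes. The median log2 difference was -0.18 over the 8 iron probes and 0.02 over all tested probes. In such bulk samples a smaller share of cells with a transcript and less of it per cell cannot be told apart. When ALKBH4 was induced, no iron probe passed the test, and over all probes the share called was 0%.

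**Figure D1:**
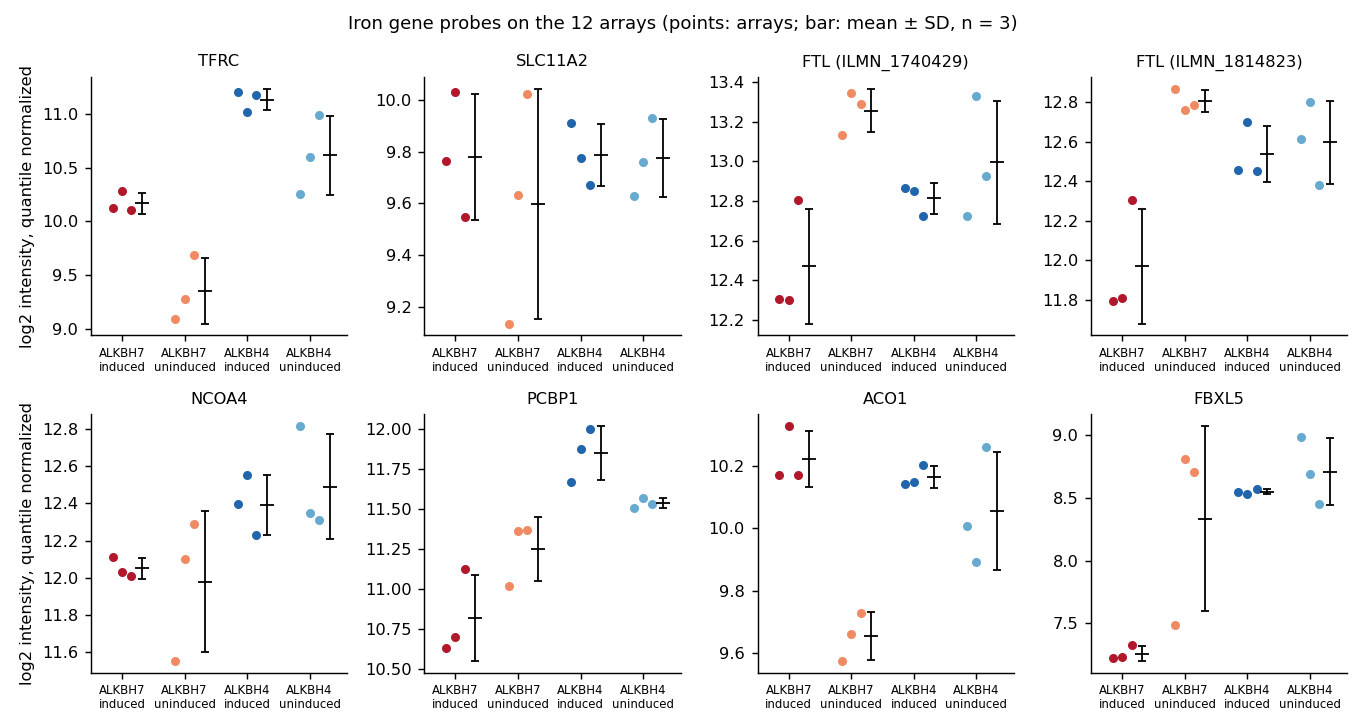
Log2 quantile-normalized intensity (vertical axis) of each tested iron probe on each of the 12 arrays, by group (horizontal axis), with points for arrays and bars for the group mean and SD (n = 3). In the ALKBH7 line the induced arrays lie above all uninduced arrays for TFRC and ACO1 and below all of them for both FTL probes and FBXL5.

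TFRC encodes the transferrin receptor, the main door for iron in dividing cells. Its log2 intensities were 10.12, 10.28 and 10.10 in induced ALKBH7 cells, against 9.09, 9.28 and 9.69 in uninduced ALKBH7 cells. The induced arrays lay close together and above all the uninduced ones, whose replicate 3 was the highest. The difference was 0.82 ± 0.19 (log2, SE, 95% interval 0.41 to 1.22) with a limma adjusted p of 0.00939. The same probe read 11.21, 11.02 and 11.17 in induced ALKBH4 cells, against 10.26, 10.60 and 10.99 in uninduced ALKBH4 cells. Here too every induced array was above every uninduced one, by a narrow margin between induced replicate 2 and uninduced replicate 3. The difference of 0.52 ± 0.19 (0.12 to 0.92) had an unadjusted limma p of 0.0155 and did not pass after adjustment over all probes (adjusted p 0.999). The call in the ALKBH7 line was lost narrowly when induced ALKBH7 replicate 2 was left out (adjusted p 0.0509).

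Ranked by level, TFRC was highest in induced ALKBH4 cells (11.13 ± 0.10, SD, n = 3), then uninduced ALKBH4 cells (10.62 ± 0.37), then induced ALKBH7 cells (10.17 ± 0.10), and lowest in uninduced ALKBH7 cells (9.35 ± 0.30). The middle neighbours in this order, uninduced ALKBH4 and induced ALKBH7 cells, overlapped by a single array. In induced ALKBH7 cells it stood near the lowest uninduced ALKBH4 array. The responses of the lines differed by 0.30 (-0.27 to 0.87, limma adjusted p 0.590), an interval that holds both no difference and a larger response in the ALKBH7 line. Over the 12 arrays the named genes whose values ran closest to TFRC were HSPA1B (Pearson r 0.975), FAT1 (0.960) and ADAMTS1 (0.956). HSPA1B encodes an inducible heat shock protein and has a near-identical neighbouring copy, HSPA1A, so its probe is uncertain. FAT1 encodes an atypical cadherin and ADAMTS1 a secreted metalloprotease. These correlations pool the 4 groups, whose means differ, and are given as a description.

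SLC11A2, also known as DMT1, carries ferrous iron out of the endosome. Its log2 intensities ranged from 9.55 to 10.03 in induced ALKBH7 cells and from 9.13 to 10.02 in uninduced ALKBH7 cells, and from 9.67 to 9.91 in induced and 9.63 to 9.93 in uninduced ALKBH4 cells. The groups overlapped in both lines, without the shift seen for TFRC. The differences were 0.18 (-0.25 to 0.61) in the ALKBH7 line and 0.01 (-0.42 to 0.44) in the ALKBH4 line, with limma adjusted p values of 0.526 and 0.999. The interval in the ALKBH7 line leaves room for a change as large as that of ACO1.

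FTL, the ferritin light chain, forms with the heavy chain the shell in which iron is stored as mineral. It was measured by a pair of probes that both passed the filter. The first read 12.31, 12.30 and 12.80 in induced ALKBH7 cells, against 13.13, 13.35 and 13.29 in uninduced ALKBH7 cells. The second read 11.80, 11.81 and 12.30 in induced ALKBH7 cells, against 12.87, 12.76 and 12.79 in uninduced ALKBH7 cells. At both probes every induced array was below every uninduced one after quantile normalization, and induced replicate 3 was the closest to them. The differences were -0.79 ± 0.17 (limma adjusted p 0.00785) and -0.84 ± 0.16 (0.00415). With uninduced replicates 2 and 3 left out together, which were chosen for this after the values were seen, the first probe stood at -0.67 (adjusted p 0.0842). FTL has many processed pseudogenes, and transcripts of a copy that the probes also match would be counted with it.

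With ALKBH4, the first FTL probe read 12.87, 12.85 and 12.72 in induced cells, against 12.72, 13.33 and 12.93 in uninduced cells. The second read 12.46, 12.70 and 12.45 in induced ALKBH4 cells, against 12.61, 12.80 and 12.38 in uninduced ALKBH4 cells. The groups overlapped at both probes. The differences were -0.18 (-0.55 to 0.19) and -0.06 (-0.40 to 0.28), intervals that do not reach the estimates seen in the ALKBH7 line. The test of the difference between the responses gave -0.61 (unadjusted limma p 0.0273, adjusted p 0.235) and -0.78 (0.00418 and 0.122), so neither passed after adjustment over all probes.

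The receptor and ferritin proteins are known to move in opposite directions in iron-starved and iron-loaded cells, so their ratio was also taken within each array, a choice made after their values were seen. Taken on raw intensities the ratio cancels a factor common to all probes of an array, but not background or differences that vary with brightness. Because each probe has its own brightness, only its change between groups is informative. The log2 ratio of TFRC to the first FTL probe was -2.28, -2.12 and -2.75 in induced ALKBH7 cells, against -4.15, -3.71 and -3.16 in uninduced ALKBH7 cells. The groups did not overlap, and the ratio was 1.29 log2 units higher when ALKBH7 was induced. On quantile-normalized intensities the same ratio was -2.18, -2.02 and -2.70 in induced ALKBH7 cells, against -4.04, -4.06 and -3.60 in uninduced ones. That separation adds nothing, because TFRC was already higher and FTL lower on every induced array on that scale. How many other pairs of probes separate was not counted. For ALKBH4 the ratio of raw intensities was -1.67, -1.79 and -1.52 in induced cells, against -2.62, -2.68 and -2.02 in uninduced cells. There too the groups did not overlap, and the ratio was 0.77 higher in induced cells. With the second FTL probe the ratio was 1.39 higher in induced ALKBH7 cells, again without overlap, and 0.67 higher in induced ALKBH4 cells, where the groups overlapped. An exact permutation test of 3 against 3 arrays cannot give a two-sided p below 0.1, so none is given.

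**Figure D2:**
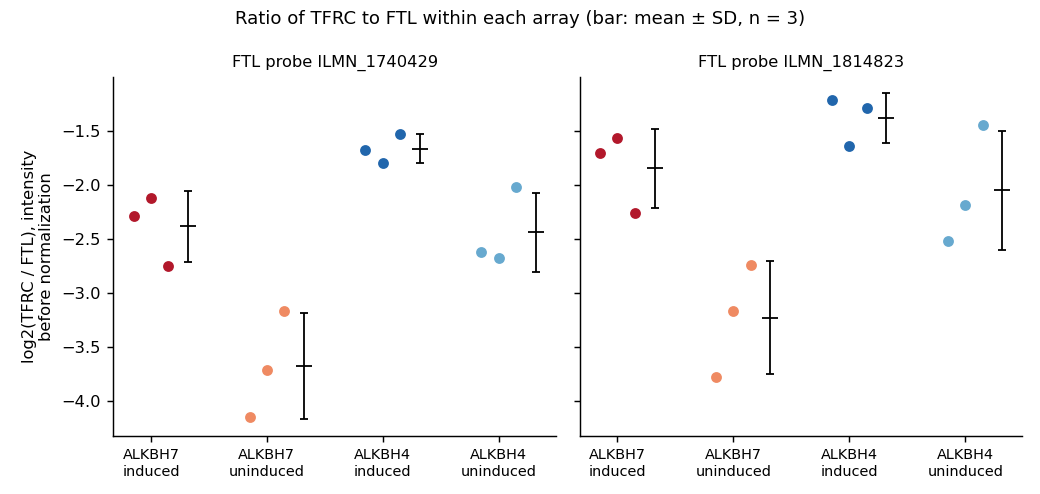
Log2 ratio of raw TFRC to raw FTL intensity within each array (vertical axis), for each of the FTL probes and each group (horizontal axis), with points for arrays and bars for the group mean and SD (n = 3). The ratio to the first FTL probe lies between -2.75 and -2.12 in induced ALKBH7 cells and between -4.15 and -3.16 in uninduced ALKBH7 cells.

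NCOA4 is the cargo receptor that delivers ferritin to lysosomes so that its iron can be recovered. Its log2 intensities were 12.11, 12.03 and 12.01 in induced ALKBH7 cells, against 11.55, 12.10 and 12.29 in uninduced ALKBH7 cells. The uninduced values were spread widely around the induced ones. The difference was 0.07 (-0.34 to 0.48, limma adjusted p 0.813). In the ALKBH4 line the values ranged from 12.23 to 12.55 in induced cells and from 12.31 to 12.82 in uninduced cells, and the difference was -0.10 (-0.51 to 0.31). The groups overlapped in both lines.

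PCBP1 is an RNA-binding protein that also acts as an iron chaperone and loads iron into ferritin. It read 10.63, 10.70 and 11.13 in induced ALKBH7 cells, against 11.02, 11.36 and 11.37 in uninduced ALKBH7 cells. The highest induced array, replicate 3, lay above the lowest uninduced one, replicate 1. The difference of -0.43 ± 0.16 missed the threshold (limma adjusted p 0.0595). It passed without uninduced ALKBH7 replicate 1 (0.0101) or induced ALKBH7 replicate 3 (0.0218), with cyclic loess (0.0492) and with the replicate number as a block (0.0429). It also passed with array weights (0.000663), which called 55.6% of all probes. It did not pass with median scaling (-0.13, 0.891) or with each line fitted alone (0.138). In all it passed in 6 of 25 alternative analyses, including the looser threshold of 0.1. Conversely, in ALKBH4 cells PCBP1 read 11.67, 11.88 and 12 in induced cells, against 11.51, 11.57 and 11.53 in uninduced cells, with every induced array above every uninduced one and a difference of 0.31 ± 0.16 that did not pass (adjusted p 0.999). Its estimates thus had opposite signs in the lines. The difference between the responses, -0.74 (-1.22 to -0.27), had an unadjusted limma p of 0.00485 and an adjusted p of 0.129.

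ACO1 holds an iron-sulphur cluster and works as a cytosolic aconitase when iron is plentiful, and without the cluster binds iron responsive elements. It read 10.17, 10.33 and 10.17 in induced ALKBH7 cells, against 9.57, 9.66 and 9.73 in uninduced ALKBH7 cells. After quantile normalization both groups were tight and well apart. With median scaling the uninduced ALKBH7 arrays read 8.97, 8.97 and 9.83, against 9.93, 9.88 and 10.18 in induced ones, a narrow margin. The quantile-normalized difference was 0.57 ± 0.12 (0.30 to 0.84) with a limma adjusted p of 0.00757. In induced ALKBH4 cells ACO1 read 10.14, 10.15 and 10.20, against 10.01, 9.89 and 10.26 in uninduced ALKBH4 cells. The uninduced arrays lay on both sides of the induced ones, and the difference was 0.11 (-0.16 to 0.38). The difference between the responses was 0.46 (0.08 to 0.84), with an unadjusted limma p of 0.0210 and an adjusted p of 0.214.

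FBXL5 is the F-box protein that binds iron and oxygen and marks IREB2 for the proteasome when iron is plentiful. Of its 3 probes 1 was detected on all 12 arrays and the others on none. The detected probe read 7.22, 7.23 and 7.33 in induced ALKBH7 cells, against 7.48, 8.81 and 8.70 in uninduced ALKBH7 cells. Uninduced replicate 1, the array that stood apart, was close to the induced ones, and the difference of -1.07 ± 0.27 (limma adjusted p 0.0139) thus rested on the other uninduced arrays. With uninduced replicates 2 and 3 left out together, a check chosen after the values were seen, it was -0.22 (limma adjusted p 0.457). Leaving out uninduced replicate 2 (-0.85, 0.0617) or 3 (-0.88, 0.0594), or induced replicate 1 (0.0524) or 2 (0.0569), also ended the call. In the ALKBH4 line FBXL5 read 8.55, 8.53 and 8.57 in induced cells, against 8.98, 8.69 and 8.45 in uninduced cells, with overlap and a difference of -0.16 (-0.74 to 0.42).

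SLC40A1, or ferroportin, is the only known iron exporter of mammalian cells. Neither of its probes passed the filter. One was detected on none of the 12 arrays and the other on 1, an induced ALKBH4 array, and their log2 intensities ranged from 6.26 to 6.44 in induced ALKBH7 cells, from 6.18 to 6.52 in uninduced ALKBH7 cells, from 6.13 to 6.81 in induced ALKBH4 cells and from 5.91 to 6.53 in uninduced ALKBH4 cells. The undetected FBXL5 probes lay in the same range, from 6.05 to 6.61. No difference is given for these 4 probes, which were not well above background.

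**Figure D3:**
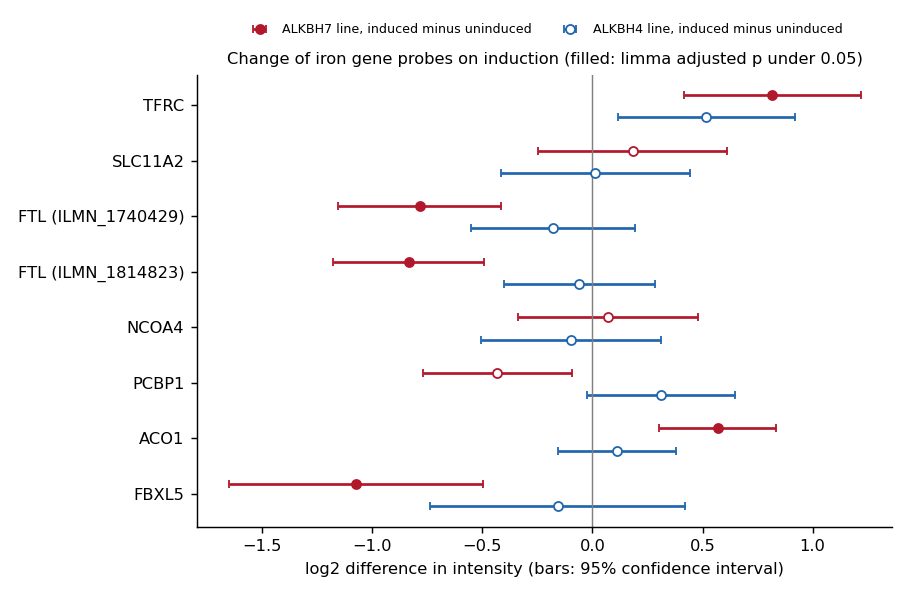
Log2 difference, induced minus uninduced, of the 8 tested iron probes (rows) in the ALKBH7 and the ALKBH4 line, with bars for the 95% intervals of limma and a line at 0. In the ALKBH7 line 5 intervals belong to probes that passed the test, from -1.07 for FBXL5 to 0.82 for TFRC, whereas none passed in the ALKBH4 line.

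For ALKBH4 induction limma called none of the 15444 probes at an adjusted p under 0.05. At an unadjusted p under 0.05 there were 376 probes on the array and 1 iron probe, TFRC. Rank product, the kind of test the study used, called no iron probe in either line at the thresholds on fold and q-value of the study, out of 289 probes called in the ALKBH7 line and 4 in the ALKBH4 line. These counts come from a rerun on jointly normalized, filtered probes. The study, with its own software and normalization, reported more genes in each line. The induced and uninduced groups did not overlap at 2 of 8 iron probes, TFRC and PCBP1, both higher in induced cells, against 10.0% of all probes. The difference between the responses of the lines passed at none of the iron probes with limma, against 0.0712% of all probes (11 of 15444). At an unadjusted p under 0.05 it did so at 5 iron probes, both of FTL and those of PCBP1, ACO1 and FBXL5, and 2610 probes on the array. With arrays weighted by their quality limma called these 5, but also 41.6% of all probes, and without uninduced ALKBH7 replicate 1 it called 3 of them, those of PCBP1, FBXL5 and the second FTL probe, and 21.7% of all probes.

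In the absence of doxycycline, 3 of 8 iron probes were lower in uninduced ALKBH7 than in uninduced ALKBH4 cells and none was higher, against 38.4% of all probes called, 19.9% higher and 18.5% lower, so the share of 3 in 8 is close to that of the whole array. TFRC stood 2.40-fold lower in uninduced ALKBH7 than in uninduced ALKBH4 cells (log2 difference -1.26 ± 0.19, limma adjusted p 0.000315), and the groups did not overlap. ACO1 was lower (-0.40 ± 0.12, limma adjusted p 0.0223), also without overlap. NCOA4 was lower too (-0.51 ± 0.19), with values of 11.55, 12.10 and 12.29 in uninduced ALKBH7 cells, against 12.82, 12.35 and 12.31 in uninduced ALKBH4 cells. It was just past the threshold (limma adjusted p 0.0466) and passed in 9 of 24 alternative analyses, against 20 of 24 for ACO1 and 24 of 24 for TFRC. Without uninduced ALKBH4 replicate 3 the ACO1 difference was -0.29 (limma adjusted p 0.102), and without uninduced ALKBH4 replicate 1 or uninduced ALKBH7 replicate 1 the NCOA4 difference was -0.35 (0.193) or -0.30 (0.143). FTL did not pass at either probe, with differences of 0.26 (-0.11 to 0.63) and 0.21 (-0.14 to 0.55), and its direction turned with the scaling, to -0.45 and -0.51 with median scaling. PCBP1, SLC11A2 and FBXL5 had differences of -0.29, -0.18 and -0.38 that did not pass.

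The calls of this comparison differed with the values the authors normalized. Their arrays had a median of 105 in the ALKBH7 line and 52.5 in the ALKBH4 line, the same on every array of a line, so the lines were not put on a common scale. With them, 53.8% of all probes were called higher and 5.81% lower in uninduced ALKBH7 cells, both FTL probes passed as higher (0.50 and 0.43, limma adjusted p 0.0218 and 0.0365), TFRC remained lower (-1.05), and ACO1 (-0.16, 0.300) and NCOA4 (-0.29, 0.213) did not pass. With median scaling 2.29% of all probes were called higher and 6.75% lower. Of the members only TFRC was lower past the threshold under every scaling tried.

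The uninduced groups did not overlap at 4 iron probes, those of TFRC, ACO1, NCOA4 and PCBP1, against 43.8% of all probes. TFRC and ACO1 were low in uninduced ALKBH7 cells and higher in induced ones. These comparisons share the uninduced ALKBH7 arrays. The lines were made from separate colonies and their arrays differed in raw brightness, and which of transgene, colony and array processing goes with the low TFRC level cannot be told apart.

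**Figure D4:**
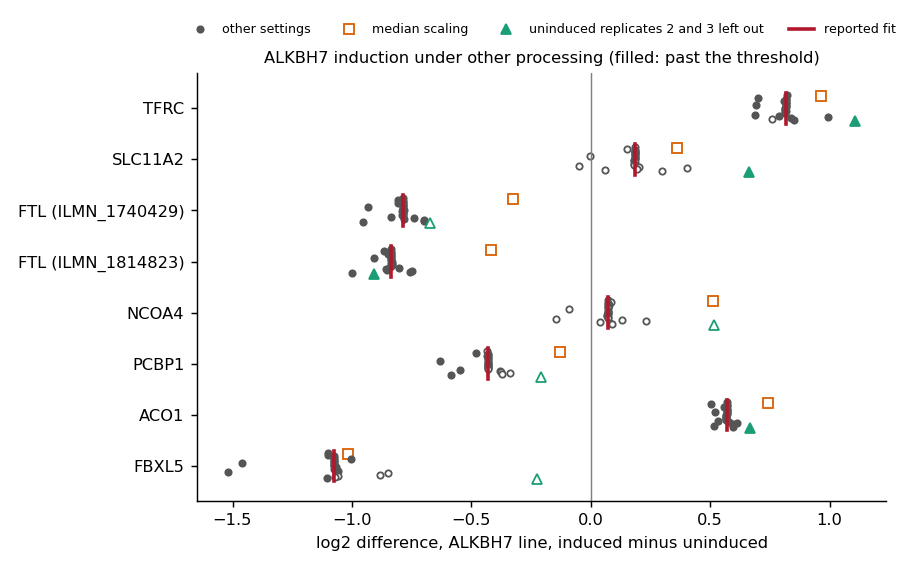
Log2 difference in the ALKBH7 line, induced minus uninduced, of each tested iron probe (rows) under each alternative processing and with arrays left out (points), filled where the test was passed and open where it was not, with a red line at the reported value, squares for median scaling and triangles for uninduced replicates 2 and 3 left out together. All points for TFRC and ACO1 lie above 0 and all points for FTL and FBXL5 below 0, and the FBXL5 points spread from -1.52 to -0.22.

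The normalization set how many of these calls stood. With median scaling in place of quantile normalization, no iron probe and 1 probe of the whole array passed in the ALKBH7 line, with differences of 0.97 for TFRC (limma adjusted p 0.238), -0.33 and -0.42 for FTL (0.649 and 0.546), 0.74 for ACO1 and -1.01 for FBXL5. The signs were the same and the FTL estimates were smaller. With median scaling the induced and uninduced ALKBH7 arrays overlapped at both FTL probes and at FBXL5, and stayed apart narrowly at TFRC and ACO1. The highest uninduced array lay just below the lowest induced one (9.79 against 9.83 for TFRC and 9.83 against 9.88 for ACO1). Median scaling moved the median difference of all probes to 0.07 in the ALKBH7 line, 0.28 in the ALKBH4 line and -0.24 between the uninduced lines, whereas under quantile normalization these medians were 0.02, 0.00 and -0.03.

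Genes that work around the members gave a background for these values, from lists drawn up from general knowledge, with each gene read at its brightest probe. Of 14 measured genes for the uptake, reduction and trafficking of transferrin iron, 1 was lower and 0 higher in induced ALKBH7 cells, with a median log2 difference of 0.00, whereas 22.8% of all 10159 named genes passed, with a median of 0.05. The gene that passed was TF, transferrin itself, a plasma protein made mainly by liver. Its probe was not well above background on any of the induced ALKBH7 arrays, where it averaged 6.42. It was detected on the 3 uninduced ALKBH7 arrays (7.04 ± 0.17, log2, SD, n = 3) and passed the filter mainly through them. The limma adjusted p of 0.00614 belongs to the log2 difference of -0.62 and, given that filter, lends no support. In uninduced ALKBH7 cells its level was at least 1.18-fold higher than in induced ones, a bound that was not tested. This bound sets the mean of the brighter group against the lowest signal among detected probes of each dimmer array.

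Of 8 measured genes for iron export and its systemic control 1 was higher and 1 lower, with a median of 0.20. NEO1, neogenin, a co-receptor in the signalling that raises hepcidin, was higher by 0.55 ± 0.16 (limma adjusted p 0.0239), and FURIN, a protease that processes several secreted proteins, was lower (-0.50 ± 0.14, adjusted p 0.0220). Of 15 measured genes for iron chaperones, ferritin turnover and turnover of the regulatory proteins 1 was higher and 1 lower, with a median of 0.19. RBX1, the RING subunit of the cullin ligase in which FBXL5 works, was higher by 1.15 ± 0.24 (adjusted p 0.00706), opposite in direction to FBXL5. STUB1, a co-chaperone and ubiquitin ligase, was lower (-0.70 ± 0.14, adjusted p 0.00537), with another probe at -0.51.

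Of 16 measured genes of haem synthesis and breakdown 4 were higher and 0 lower, with a median of 0.20. FECH, ferrochelatase, which inserts iron into protoporphyrin, was higher by 0.63 ± 0.13 (limma adjusted p 0.00608), and UROD, an earlier enzyme of the pathway, by 0.51 ± 0.13 (0.0149). ABCB6, a porphyrin transporter, was higher by 0.62 ± 0.19 (0.0296). BLVRA, which turns biliverdin into bilirubin, was higher by 1.02 ± 0.20 (0.00507). The share, 4 of 16, was close to that of all named genes.

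Of 22 measured genes of iron-sulphur cluster assembly 2 were higher and 1 lower, with a median of 0.09. NUBPL, an assembly factor for respiratory complex I, was higher by 0.78 ± 0.18 (limma adjusted p 0.00851), and CIAPIN1, which acts in the cytosolic pathway, by 0.62 ± 0.13 (0.00701). ISCA1, a mitochondrial assembly protein, was lower at its brightest probe (-0.89 ± 0.21, 0.00981, detected on 2 of 3 induced arrays) and stood at 0.17 at another, so its probes disagree.

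Other transcripts with a reported iron responsive element numbered 7 measured genes, of which 2 were higher and 1 lower, with a median of -0.34. Their share called, 42.9% against 22.8% of all named genes, rests on few genes. APP, the amyloid precursor protein, averaged 9.39 ± 0.22 in induced and 10.94 ± 0.69 in uninduced ALKBH7 cells and was lower (-1.55 ± 0.25, limma adjusted p 0.00233), with its other probes at -0.21 and -1.77. NDUFS1, an iron-sulphur subunit of complex I, was higher by 0.50 ± 0.14 (0.0221, detected on 1 of 3 uninduced arrays), and CDC42BPA, a kinase, by 0.51 ± 0.14 (0.0218) with another probe at 0.73. Transcripts with this element therefore passed in both directions, as FTL and TFRC did.

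The oxygen sensors that mark HIF for destruction need ferrous iron, and iron chelators are known to raise their targets. Of 18 measured targets 3 were higher and 1 lower in induced ALKBH7 cells, with a median of 0.21. The share called, 22.2%, was close to the 22.8% of all named genes. NDRG1, a stress-responsive gene known to rise strongly with iron chelators, averaged 8.94 ± 0.14 in induced and 7.92 ± 0.30 in uninduced ALKBH7 cells, a difference of 1.03 ± 0.19 (limma adjusted p 0.00389). In the ALKBH4 line NDRG1 stood at 8.81 ± 0.11 in induced and 8.39 ± 0.39 in uninduced cells, a difference of 0.42 that did not pass. BNIP3, a mitophagy receptor, was higher by 0.61 ± 0.17 in the ALKBH7 line (limma adjusted p 0.0242) and ADM, adrenomedullin, by 0.36 ± 0.12 (0.0468). P4HA2, a collagen prolyl hydroxylase subunit, was lower (-0.54 ± 0.15, 0.0244) with another probe at -0.07. The other 14 did not pass.

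Of 24 measured genes of zinc and copper handling 5 were higher and 2 lower, with a median of 0.21. The share called was 29.2%, against 22.8% of all named genes. Metallothioneins are small proteins that bind zinc and copper. MT2A averaged 10.07 ± 0.17 in induced and 8.85 ± 0.27 in uninduced ALKBH7 cells (difference 1.22 ± 0.23, limma adjusted p 0.00377), and MT1X was higher by 1.03 ± 0.22 (0.00657). The metallothioneins are close paralogs and their probes may share signal. SLC39A6, a zinc importer, was lower (-1.09 ± 0.32, 0.0260) at its brightest probe, detected on 2 of 3 induced arrays, and stood at 0.01 at another, and ATP7B, a copper pump, was lower (-0.42 ± 0.12, 0.0279). In the ALKBH4 line no gene of any of the 8 lists passed.

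**Figure D5:**
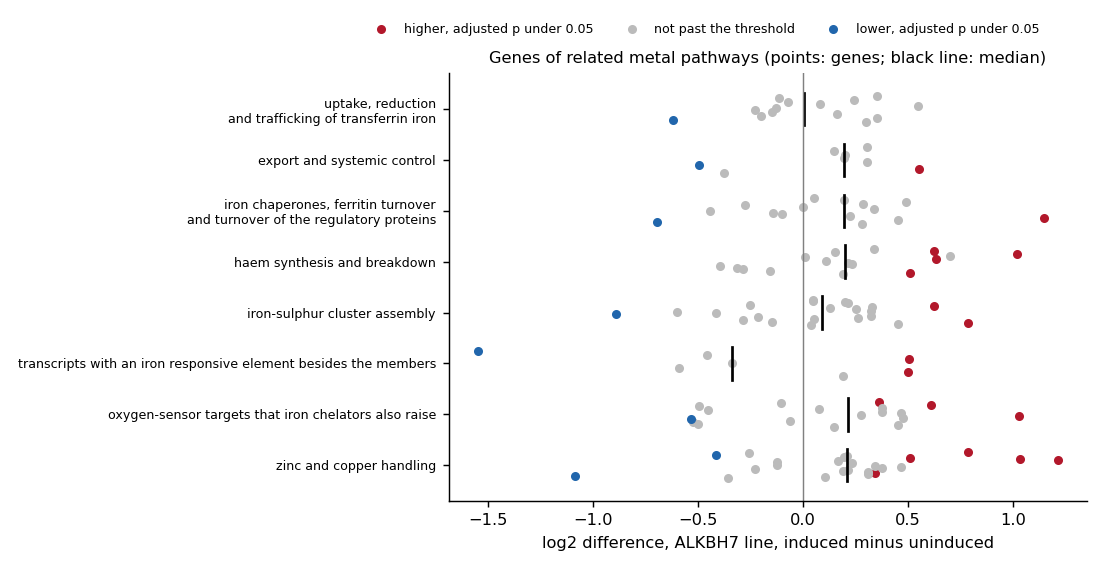
Log2 difference in the ALKBH7 line, induced minus uninduced, of each measured gene (points) of the 8 lists around the members (rows), red where higher and blue where lower at a limma adjusted p under 0.05 and grey otherwise, with a black line at the median of each list. The medians run from -0.34 for other transcripts with an iron responsive element to 0.21 for zinc and copper handling and for oxygen-sensor targets.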

How the data were processed

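Total RNA from 12 samples was profiled on the Illumina HumanWG-6 v3 BeadChip. The authors summarized beads in GenomeStudio v2011.1 (Gene Expression module v1.9.0) and deposited, for 48803 probes and each array, an unnormalized bead intensity (arbitrary units) together with its detection p-value, which rests on the negative control beads. They quantile normalized in J-Express Pro 2.7, and their deposited normalized values, intensities on a linear scale, served as an alternative (lowest rank correlation with the unnormalized values of the same array, 1.00).

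For the present values, quantile normalization was run jointly on the 12 unnormalized arrays, no background was corrected, and log2 was taken. Probes with a detection p under 0.01 on at least 3 arrays were tested in limma 3.58.1 (R 4.3.3) with 4 group means per probe, and p-values were adjusted over all tested probes by the Benjamini-Hochberg method. The scripts were checked on simulated data. Symbols came from the platform annotation, which gave a single symbol to 27578 probes, several to 13 and none to 21212. No array was a copy of another (the most similar pair differed at 48773 probes). Groups came from the sample titles. Column headers use the word control for uninduced arrays, and 0 sample columns were without a group.

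Contrasts were ALKBH7 induced over uninduced, ALKBH4 induced over uninduced, the first less the second, and the uninduced ALKBH7 line over the uninduced ALKBH4 line. Alternatives were normexp with an offset of 50, median scaling, cyclic loess, other detection filters, the authors' values, each line fitted alone, a replicate block, a trended robust prior, array weights, other thresholds, leaving out arrays, and rank product (9 pairs, 100 permutations, seed 7, q under 5 percent, fold over 2 in the ALKBH7 line and 1.35 in the ALKBH4 line). The members and the lists were chosen with earlier results of these data known. All members were described. From each list the text names up to 2 genes with the highest and up to 2 with the lowest difference among those past the threshold in the ALKBH7 line, and the 3 genes most correlated with TFRC. FTH1, fixed for the same purpose, had no probe with its symbol. Sequences and gene starts came from RefSeq (GRCh38.p14). Figures were drawn with Python 3.11.15 and matplotlib 3.10.9.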

Additional observations from a re-analysis of the deposited data

How the results depend on the processing

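The counts of iron probes past the threshold, 5 for ALKBH7 induction, 0 for ALKBH4 induction, 0 for the difference between the responses and 3 between the uninduced lines, were recomputed under each alternative. For ALKBH7 induction the count was 0 with median scaling, and 3 to 6 with single arrays left out (3 without induced replicate 2, beside 1278 of all probes against 3710). By rank product the count was 0, but of the iron probes only FBXL5 exceeded its fold threshold of 2. For ALKBH4 induction it was 0 in every alternative run, including 0 to 0 with single arrays left out. For the difference between the responses array weights gave 5, beside 6430 of all 15444 probes, and single arrays left out gave 0 to 3 (3 without uninduced ALKBH7 replicate 1, beside 3358 of all probes). Between the uninduced lines an adjusted p of 0.01 gave 1, single arrays left out gave 1 to 3 (1 without uninduced ALKBH4 replicate 3), and leaving out uninduced ALKBH7 replicates 2 and 3 together, chosen after seeing the data, gave 6, all lower, beside 7715 of all probes, 3801 higher and 3914 lower. The cause of these shifts was not tested.

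With the replicate number as a block the counts were 6 for ALKBH7 induction, 0 for ALKBH4 induction, 0 for the difference and 2 between the uninduced lines. Deviations of samples with the same number correlated at 0.41, -0.12 and 0.17 in the ALKBH7 line and at -0.13, 0.26 and 0.11 in the ALKBH4 line. With other numbers they correlated at -0.34, 0.05 and 0.02 in the ALKBH7 line and at 0.03, -0.11 and -0.04 in the ALKBH4 line. So few samples cannot show if the numbers mark pairs, and the labels do not say so. No TFRC, FTL, ACO1 or FBXL5 difference in ALKBH7 induction changed sign in any of 25 alternatives. Many of these could not change it. Other filters, lines fitted alone, the replicate block, the trended robust prior and other thresholds leave the estimate itself as it was. Leaving out an ALKBH4 array hardly moved it. The calls of the lists moved more: the count for zinc and copper handling ran from 0 to 18 and that for oxygen-sensor targets from 0 to 12. Probes near background bound what can be said of SLC40A1 and of the other FBXL5 probes.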

Other observations

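The lists around the members were also read between the uninduced lines, where limma called 2203 of 10159 named genes higher and 1725 lower in uninduced ALKBH7 than in uninduced ALKBH4 cells, 38.7% in all, with a median log2 difference of 0.00. This split moved with the scaling: of 15444 probes 8315 were called higher and 898 lower with the authors' values, and 354 higher and 1043 lower with median scaling. Each list was read only with joint quantile normalization here. Of 22 genes of iron-sulphur cluster assembly 7 were higher and 1 lower, with a median of 0.28, and the share called, 36.4%, was close to that of all named genes. Genes of transferrin iron uptake and trafficking had 2 of 14 higher and 4 lower, with a median of -0.03. The 18 oxygen-sensor targets had 1 higher and 3 lower, with a median of -0.13.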
